A study of Homo sapiens with 2 samples.

Results

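The regions described here are the oestrogen receptor α (ERα) peaks on the long arm of human chromosome 16 (16q) in T47D cells. They are the peaks of chromosome 16 whose start lies above position 46300000 of the hg19 build. This rule takes 315 of the 12688 peaks of the list. The short arm (16p), taken as peaks that end below position 35300000, holds 205 peaks and serves as the comparison. The 2 rules together take all 520 peaks of the chromosome. T47D is an established breast cancer cell line that expresses ERα. The cells spent 48 h in medium without steroids and then 45 min with 10 nM 17β-estradiol. The list was called from 1 ERα immunoprecipitation library over 1 input library. The antibody was H-20, against ERα, the input had none, and both libraries came from estradiol-treated cells. No untreated cells were analysed here, so the peaks are places of receptor occupancy after estradiol and say nothing of a response to it.

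ERα is a nuclear receptor that binds DNA as a dimer once it holds estradiol. In breast cancer cells many of its sites are enhancers far from the start of a gene, and enhancers often stand in groups. Loss of 16q is common in luminal breast tumours, and the arm carries CDH1, the gene of the cell adhesion protein E-cadherin. Whether these T47D cells have lost or gained parts of the arm was not examined here.

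ERα peaks were denser on 16q than on 16p, by an amount that rested largely on a single megabase. The long arm had 7.15 peaks per Mb (exact Poisson 95% interval 6.38 to 7.99) over 44.1 Mb, and the short arm had 5.81 (5.04 to 6.66) over 35.3 Mb. The ratio of the densities was 1.23 (exact conditional 95% interval 1.03 to 1.48). Without the window from 85000001 to 86000000, which alone held 60 peaks, 255 peaks remained on 16q, or 5.92 per Mb, and the ratio was 1.02 (0.845 to 1.23). Leaving out the fullest window of 16q alone can only lower the ratio. With the fullest window of 16p, which held 17 peaks, left out too, the ratio was 1.08 (0.892 to 1.31). When peaks whose edges lay within 10 kb were counted as 1 region, 188 regions remained on 16q and 157 on 16p, and the ratio was 0.959 (0.772 to 1.19). The interval also included 1 for peaks in the upper part of the list by score (at or above its median), at a ratio of 1.27 (0.989 to 1.64), and in 3 further settings given in the closing section. Only 1 immunoprecipitation library was analysed, so no value here has a replicate error. The intervals reflect counting alone and assume that peaks arise independently. Closely spaced peaks do not, and the intervals are too narrow.

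The peaks of 16q gathered toward the end of the arm. The arm was divided at 60, 66 and 84 Mb after the counts had been seen. The 6.35 Mb beyond 84 Mb held 141 peaks, which is 44.8% of the peaks in 14.4% of the length, or 22.2 per Mb (18.7 to 26.2). From 66 to 84 Mb there were 110 peaks, or 6.11 per Mb (5.02 to 7.37), and from the start of the arm to 60 Mb there were 63, or 4.60 per Mb (3.53 to 5.88). The 6 Mb between held 1 peak. In the same length at the end of 16p there were 66 peaks, at 10.4 per Mb (8.03 to 13.2), and these were 32.2% of the peaks of that arm. The end of 16q was thus 2.14 times (1.58 to 2.91) as dense as the end of 16p, and 1.46 times (1.04 to 2.05) without the window that starts at 85000001. The stretch was chosen for its high count, so these ratios are a description.

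**Figure D1:**
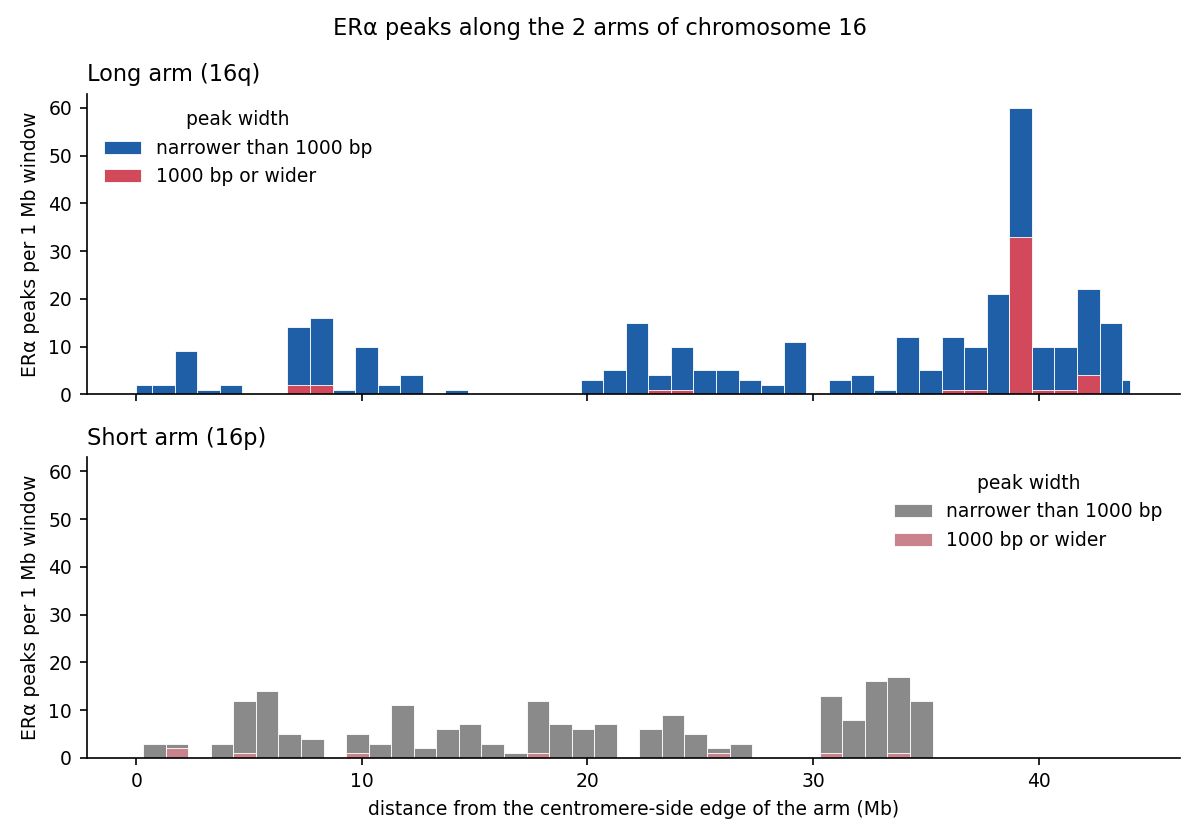
ERα peaks in each 1 Mb window of 16q (top) and 16p (bottom), plotted by the distance in Mb from the edge of the arm next to the centromere. The full bar is the number of peaks and its lower, red part the number that are 1000 bp or wider; 1 window of 16q stands at 60 peaks, 33 of them wide, and no other window of either arm exceeds 22.

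Counted in 1 Mb windows, the peaks of both arms were unevenly spread, and the fullest windows were on 16q. Of all 3053 windows on chromosomes 1 to 22 and X, 1.97% held 20 or more peaks, 13.2% held 10 or more and 24.2% held 0. On 16q, 3 of 45 windows held 20 or more, 15 held 10 or more and 9 held 0. On 16p, 0 of 36 windows held 20 or more, 8 held 10 or more and 7 held 0. With window edges shifted by 500 kb, the fullest window of 16p held 20, and the highest counts on 16q were 47 and 37. A shifted edge divided the 60 peaks of the fullest unshifted window of 16q between these windows. The median window held 4 peaks on 16q (quartiles 1 and 10) and 5 on 16p (quartiles 2 and 8.25). By the median, the windows of 16q were not richer than those of 16p. The highest counts were 60, 22 and 21 on 16q against 17, 16 and 14 on 16p. The 5 fullest windows of 16q held 134 peaks (42.5%), and the 5 fullest of 16p held 72 (35.1%).

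The megabase from 85000001 to 86000000 set 16q apart. It had 19.0% of the peaks of the arm in 2.27% of its length, and 35.9% of all bases covered by peaks on the arm. Peaks covered 8.60% of this window. The next most covered window of chromosomes 1 to 22 and X, on chromosome 17 from 38000001, reached 2.98%. The peaks were not spread over the whole megabase: the 5 bins of 100 kb from 85300001 to 85800000 held 52 of the 60, and these bins held 17, 9, 12, 7 and 7. On either side of them the counts per bin were between 0 and 4. From general knowledge, and not from an annotation of this build, this megabase is where GSE1 lies, which encodes a coiled-coil protein found with histone deacetylase complexes. In the RefSeq gene table, which follows another build and was used for order only, the protein-coding neighbours of GSE1 are CIBAR2 on the side of the centromere and GINS2 on the other. No peak was assigned to a gene, an exon or an intron, and no sequence is printed, because no hg19 annotation or sequence was used here.

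Wide peaks were frequent in this window, also among its low-scoring peaks. A score is the value the authors' peak caller gave each peak, and a wide peak is here one of 1000 bp or more. The median width was 1062.5 bp in the window, 534 bp on the rest of 16q, 506 bp on 16p and 505 bp over the whole list. The share of wide peaks was 5.56% over the whole list. It was 55.0% (33 of 60, Wilson 95% interval 42.5 to 66.9%) in the window, 5.49% (14 of 255, 3.298 to 9.003%) on the rest of 16q and 3.90% (8 of 205, 1.99 to 7.51%) on 16p. The window was picked for its number of peaks, and widely enriched stretches that are split into several peaks could raise the number and the width together. Among peaks that scored under the list's median of 128.26, 12 of 28 in the window were wide (42.9%, 26.5 to 60.9%). On the rest of 16q 0 of 122 such peaks were wide (0 to 3.05%), and on the other windows of chromosomes 1 to 22 and X together 87 of 6295 were (1.38%, 1.12 to 1.70%). Wide peaks also became more frequent with score inside the window: 7 of 15 peaks from the median to the upper quartile were wide (46.7%, 24.8 to 69.9%), and 14 of 17 above it were (82.4%, 59.0 to 93.8%).

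**Figure D2:**
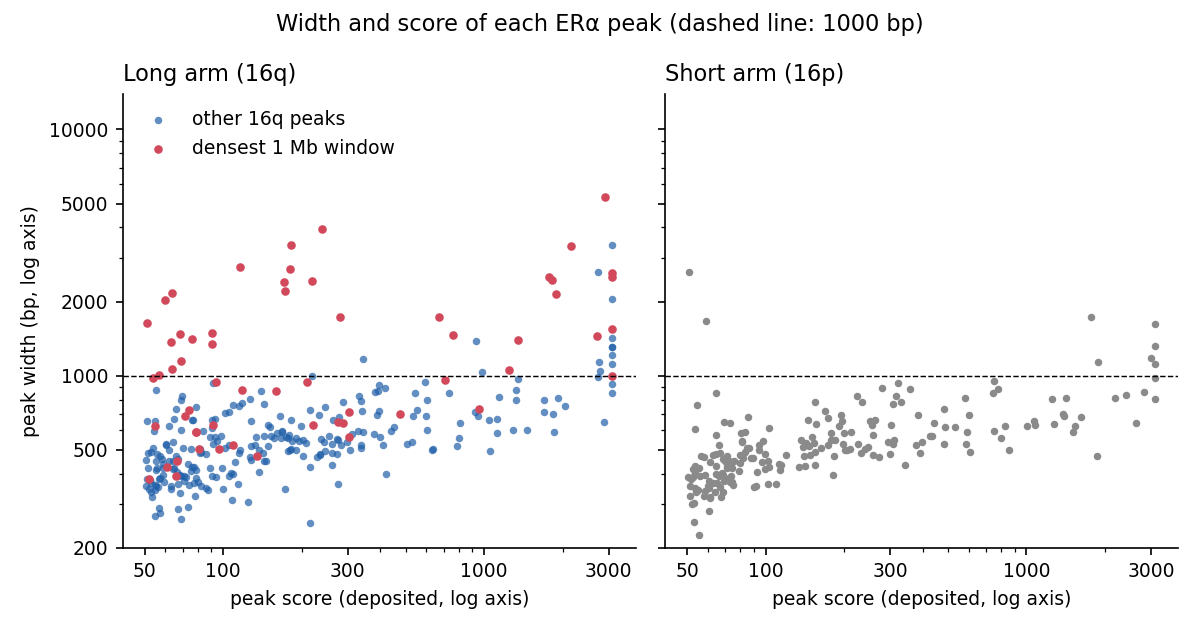
Width in bp against deposited score for each of the 315 peaks of 16q (left, with the 60 peaks of the densest window in red) and the 205 peaks of 16p (right), both on log axes. Width rises with score in each set, with a Spearman correlation of 0.403 within the window, 0.640 on the rest of 16q and 0.713 on 16p. Within the window peaks of 1000 bp or more occur from the lowest scores to the highest. On 16p 2 such peaks also scored under the list's median.

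The wide peaks of the whole arm were mostly those of this window. Over all of 16q, 47 peaks (14.9%, 11.4 to 19.3%) were wide, which is 11.0 percentage points (Newcombe 95% interval 5.98 to 15.8) above 16p. Without the window the difference was 1.59 points, with an interval from -2.63 to 5.59 that includes 0. The whole list had 60 peaks of 2000 bp or more, and 16 of them (26.7%) lay in this window, which holds 0.473% of all peaks. The rest of 16q had 3 of that width and 16p had 1. Within 100 bp of the threshold, 11 peaks of 16q lay just below it, the widest at 997 bp, and 7 lay at or just above it. Across peaks, which are not independent, width and score had a Spearman correlation of 0.640 on 16q outside the window, 0.713 on 16p and 0.403 within the window.

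Of the 10 widest peaks of 16q, 8 lay in this window. The widest ran from 85495218 to 85500544, measured 5327 bp with a score of 2900.82 and was the fifth widest of the whole list (rank 5). Its neighbour from 85491785 to 85495144 (3360 bp, score 2151.28) ended 73 bp before it. The second widest ran from 85643289 to 85647240 and measured 3952 bp, yet its score was 238.46, below the upper quartile of the list, 347.16. The same held for the third, from 85751255 to 85754645 (3391 bp, score 181.30), and for those from 85386726 to 85389484 (2759 bp, score 115.51) and from 85586726 to 85589446 (2721 bp, score 180.63). Wide peaks of the window were thus of both kinds, with scores near the top of the list and scores near or below its median. Beyond the peaks at 3100 described next, the widest peak elsewhere on 16q ran from 82170004 to 82172650 (2647 bp, score 2740.26). It lies in the megabase known to hold HSD17B2, which encodes an enzyme that oxidises estradiol to the weaker oestrone.

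**Figure D3:**
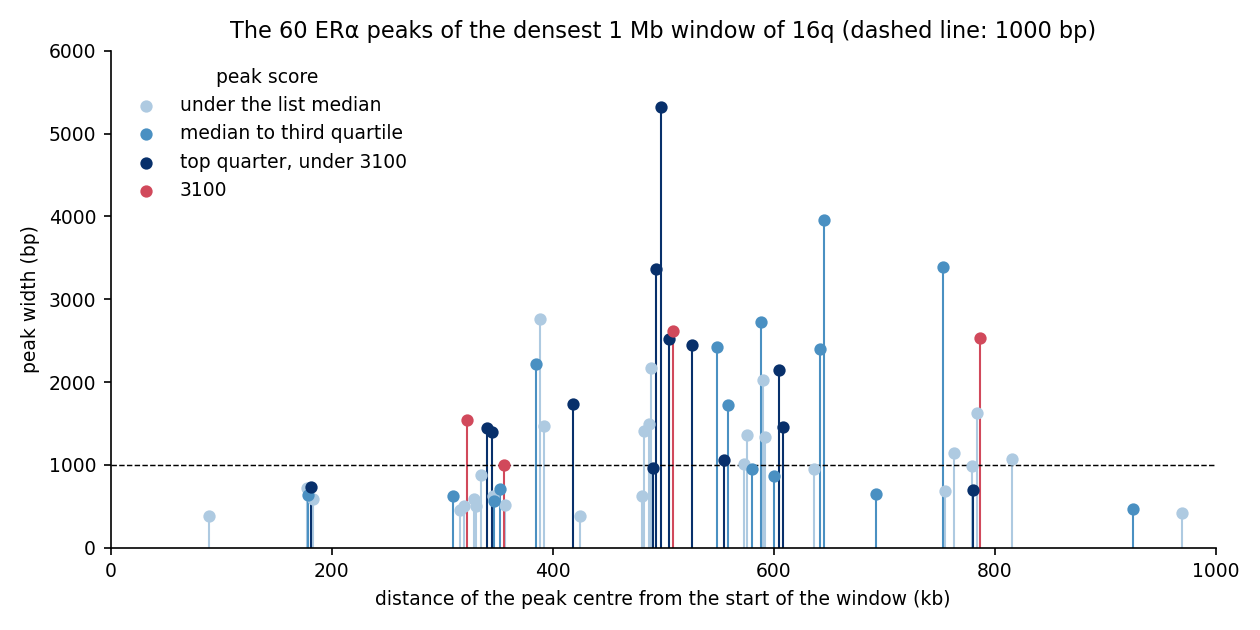
Each stem is 1 of the 60 peaks in the densest 1 Mb window of 16q, placed by the distance in kb of its centre from the start of the window, with its height showing the width in bp and its colour the class of the deposited score. Wide peaks of low score (light blue, above the dashed line at 1000 bp) stand among wide peaks of high score between about 300 and 800 kb.

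Of the 14 peaks of highest score on 16q, 9 lay beyond 84 Mb, where 44.8% of all peaks of the arm lay. Some of them were in the densest window. Many peaks of the list share the score 3100, so it does not rank them, and 2.12% of the whole list scored 3100 or more. On 16q 14 peaks did (4.44%, 2.67 to 7.32%), all at exactly 3100, and on 16p 5 did (2.44%, 1.05 to 5.58%). The difference of 2.01 percentage points had an interval from -1.61 to 5.20, which includes 0. The share of peaks at or above the median score, 50% in the list, was 52.4% (165 of 315) on 16q and 50.7% (104 of 205) on 16p. That difference was 1.65 points (-7.08 to 10.4), an interval that includes 0. This share thus showed no difference in score between the arms, and differences within these bounds are not excluded.

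The densest window held 4 of the 14, or 6.67% of its peaks (2.62 to 15.9%), against 3.92% (2.14 to 7.07%) on the rest of 16q. They ran from 85321572 to 85323113 (1542 bp), from 85355302 to 85356301 (1000 bp), from 85507117 to 85509736 (2620 bp) and from 85785166 to 85787693 (2528 bp). The widest of the 14 lay further on, from 88992466 to 88995847 (3382 bp). Another 3 beyond the window ran from 86226842 to 86228151 (1310 bp), from 87822894 to 87824104 (1211 bp) and from 88050289 to 88051140 (852 bp), and 1 more from 88829286 to 88830594 (1309 bp). The part of the arm beyond 84 Mb thus had 9 of the 14, and 44.8% of all peaks of the arm. These counts are small and their difference was not tested.

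The other 5 lay nearer the centromere. They ran from 53133137 to 53134249 (1113 bp), from 54457817 to 54458738 (922 bp), from 54458742 to 54460798 (2057 bp), from 70169687 to 70171114 (1428 bp) and from 83980113 to 83981109 (997 bp). The second and the third of these were separated by 3 bp, so these 2 peaks all but touch. Every one of the 14 was wider than the median peak of the arm, 565 bp.

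Other rich megabases of 16q had smaller shares of wide peaks than the densest one, though 3 of the 4 given here were above the 5.56% of the list. The window from 88000001 to 89000000 held 22 peaks, 4 of them wide (18.2%) and 3 at 3100. General knowledge places CBFA2T3 across its end, the gene of a transcriptional corepressor of the ETO family, and in the RefSeq gene table CBFA2T3 stands between PABPN1L and ACSF3. The window from 84000001 to 85000000 held 21 peaks, 0 of them wide, with a median score of 94.3 and a top score of 1916.9. Nearer the centromere, the window from 54000001 held 16 peaks, 2 wide (12.5%) and 2 at 3100. It is the megabase of IRX3 and IRX5, which encode Iroquois homeobox transcription factors and follow FTO, the gene of an RNA demethylase, in the gene table. The window from 53000001 held 14 peaks, 2 of them wide (14.3%).

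Some megabases known for other genes, chosen after their values were seen, held fewer or plainer peaks. Not all remaining windows were of this kind: those from 86000001 and from 87000001 held 10 peaks each, with a top score of 3100. The window from 68000001, where CDH1 lies, held 15 peaks, 0 of them wide, with a top score of 1284.4. The window from 80000001, where CDYL2 lies, the gene of a chromodomain protein, held 12 peaks with a top score of 805.7. The windows from 51000001 and from 52000001, known for SALL1, the gene of a zinc finger transcription factor, and for TOX3, the gene of a high mobility group box protein, held 0. The windows from 61000001 to 66000000, where the cadherin genes CDH8 and CDH11 lie, also held 0. A megabase holds many genes, so these counts name places and not target genes.

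ERα peaks on 16q lay closer together than on 16p, and here the densest window was not the whole of the difference. Over chromosomes 1 to 22 and X, 41.4% of peaks had another peak centre within 10 kb. On 16q 179 of 315 did (56.8%, 51.3 to 62.2%), and on 16p 79 of 205 did (38.5%, 32.1 to 45.4%). The difference was 18.3 percentage points (Newcombe 95% interval 9.52 to 26.6). Without the window from 85000001 it was 10.5 points (1.35 to 19.3), with 49.0% on the rest of 16q, and 11.8 points (2.44 to 20.8) without the fullest window of each arm. Over its whole length the rest of 16q had 5.92 peaks per Mb, and 16p had 5.81. These lengths include stretches without a peak. Leaving out those of over 2 Mb shortened all of 16q to 31.8 Mb and 16p to 31.2 Mb. On 16p stretches of 1.98 and 1.96 Mb fell just short of this cut and stayed in. Whether density accounts for the closer spacing was not tested. Since neighbours come at least in pairs, the intervals of the shares and of their differences are too narrow. The median distance to the nearest centre was 6.29 kb on 16q, 10.4 kb on 16q without the window, 15.4 kb on 16p and 17.1 kb over chromosomes 1 to 22 and X. In the window it was 2.76 kb.

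**Figure D4:**
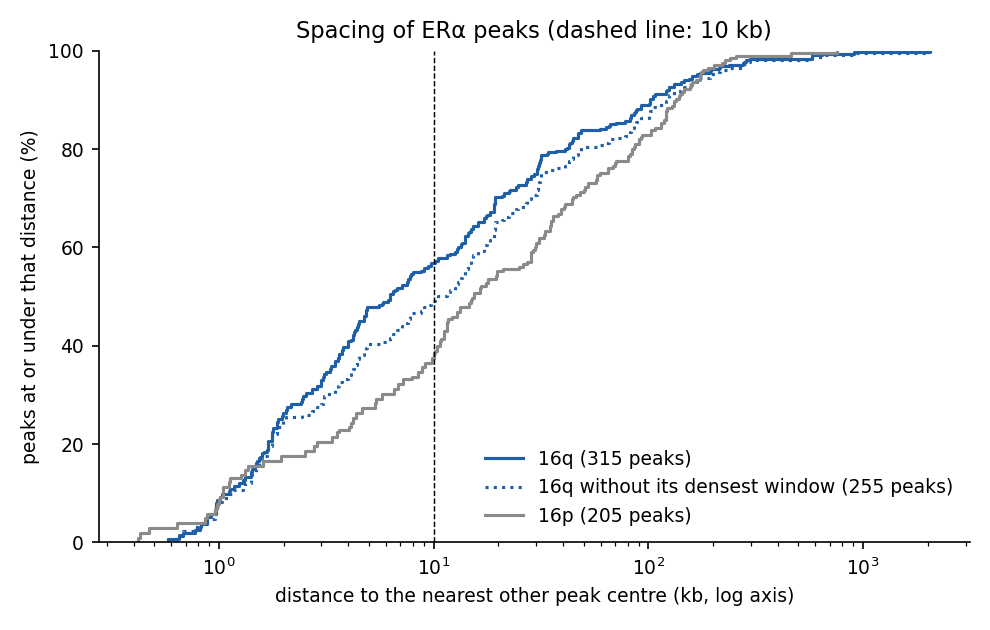
Share of peaks, in percent, whose nearest other peak centre lies at or under the distance on the log axis (kb), for 16q (solid blue), 16q without its densest window (dotted blue) and 16p (grey). At the dashed line of 10 kb the curves stand at 56.8%, 49.0% and 38.5%.

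Short gaps of every class up to 10 kb took a larger share on 16q, though for gaps under 500 bp the excess lay largely in the densest window. The classes were not tested against one another. Of the 314 gaps between neighbouring peaks on 16q, 31 (9.87%, 7.04 to 13.7%) were under 500 bp, and of the 204 on 16p 12 were (5.88%, 3.40 to 10.0%), so the intervals overlap. In the densest window 15 of 59 gaps were that short (25.4%, 16.1 to 37.8%), and 6 were under 100 bp. On 16q without that window 16 of 254 gaps were under 500 bp (6.30%, 3.91 to 9.99%), close to the share on 16p. Gaps from 500 bp to 2 kb numbered 31 on 16q (9.87%) and 8 on 16p (3.92%), and those from 2 to 10 kb numbered 65 (20.7%) and 28 (13.7%). Without the densest window the shares of these classes on 16q were 9.06% and 17.3%. When peaks with edges within 500 bp were merged, which left 284 regions on 16q and 193 on 16p, 142 of the 284 and 61 of the 193 (31.6%) had a neighbour within 10 kb. Peak edges come from the caller, and no source used here gives its rule for splitting or joining enriched stretches. Separate binding sites and parts of 1 broad site therefore cannot be told apart by the list.

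Merged within 10 kb, the peaks of 16q formed 10 clusters of 5 or more, and those of 16p formed 0. Over chromosomes 1 to 22 and X, 7.20% of peaks belonged to such clusters, against 72 of 315 (22.9%) on 16q, where 7 of the 10 lay outside the densest window. On 16p the largest clusters had 4 peaks. Single peaks made up 133 of the 188 merged regions on 16q and 122 of the 157 on 16p.

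The 3 clusters inside the window differed from one another. The largest, of 14 peaks from 85309765 to 85356940, was mostly of narrow peaks: 4 were wide, 2 scored 3100, the median score was 168.95 and peaks covered 24.1% of its 47.2 kb. The second, of 9 peaks from 85480318 to 85509736, was the most covered of the 3. Peaks covered 69.7% of its 29.4 kb, 7 of the 9 were wide and the median score was 708.99. The third, also of 9 peaks, ran from 85572877 to 85609256. It too had 7 wide peaks but a median score of 159.19, a top score of 1889.09 and a coverage of 38.2%. A smaller group of 4 peaks, from 85778658 to 85787693, was covered to 64.7%.

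The 7 clusters outside the window were smaller and mostly of narrow peaks. The largest had 8 peaks from 88983597 to 89004896, in the stretch of CBFA2T3, and included the 3382 bp peak at 3100, whereas its median score was 152.45. The cluster of 6 from 54456414 to 54466576 was the shortest and the most covered, with 57.5% of its 10.2 kb, 2 peaks at 3100 and a median score of 728.10. Another 6 peaks ran from 54114472 to 54130525 with a top score of 1701.56 and 0 wide peaks. The clusters of 5 ran from 56403065 to 56417646 (top score 2877.64), from 83972855 to 83988757 (top score 3100), from 84758072 to 84781018 (top score 605.59) and from 88826991 to 88837717 (top score 3100). In the cluster at 83972855 1 peak stood at 3100 while the median score was 62.16. Its neighbour on the side of the centromere scored 593.66, above the upper quartile of the list, and that on the other side 55.4.

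Between these places 16q had long stretches without a peak. The longest, of 5.64 Mb, reached from 60670421 to 66311994, in a part of the arm known to be poor in genes. A single peak of 358 bp with a score of 55.38 separated it from the stretch of 2.05 Mb that began at 58618128. The others of the 5 longest began at 50740649 (2.34 Mb), 75458786 (2.25 Mb) and 82231860 (1.60 Mb). On 16p the longest began at 4667193 and measured 4.10 Mb. The first peak of 16q lay at 46657494 to 46658081 and the last at 90236955 to 90237262. Sequence that cannot be mapped was not marked here, and the read depth of both libraries is unknown from the list, so an empty stretch is not shown to lack binding. Whether the copy number of 16q in T47D cells moves with these counts was not tested.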

How the data were processed

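The deposited file is 1 list of peaks, named by the MACS caller per the file, from 1 ERα immunoprecipitation library over 1 input library. Each peak has a start, an end and a score assigned by the authors' caller, whose scale is not stated. HOMER, Bowtie 0.12.9, CASAVA 1.8 and hg19 appear in the submitters' processing notes without a role. The threshold and the handling of duplicate or multiply mapped reads are not given there. Read depth is unknown, so no limit of detection is given.

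Starts were counted from 0 in the file and 1 was added for printing. Width is end minus start. A peak belongs to the 1 Mb window that holds its centre, and the first and last windows of the arms are partial. The arm lengths follow the rules above and the chromosome length in GenomeInfoDb 1.38.1. Densities carry exact Poisson intervals, ratios exact conditional (Clopper-Pearson) ones, shares Wilson ones and differences Newcombe ones, all at 95%. No p-value is given, since there is 1 library of each kind. The computations were tested on simulated data. The simulated counts were drawn independently, so this test does not show how the intervals behave for clustered peaks.

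The members, thresholds and lists were chosen with earlier results of these data known. Named are the 10 widest and the highest-scoring peaks, windows of 20 or more peaks, clusters of 5 or more and the 5 longest peak-free stretches; as 14 peaks tie at the top score, all 14 are given. Further windows and peaks were chosen after their values were seen. The planned counts by gene, promoter and motif were left out, since no hg19 annotation or sequence was used here. Alternatives were other score, width and distance thresholds, merging, shifted windows, other lengths and leaving out the densest window. The software was Python 3.11.15 with matplotlib 3.10.9, SciPy 1.17.1, pandas 2.3.3 and NumPy 2.4.6.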

Additional observations from a re-analysis of the deposited data

How the results depend on the processing

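The merging within 500 bp, the width comparison without the densest window and the removal of the densest window of each arm were chosen after seeing the data. The density ratio of 16q to 16p reversed to 0.959 after merging within 10 kb. It moved to 1.02 without the densest window of 16q (1.08 without that of each arm) and to 1.51 with both lengths shortened by every stretch of over 2 Mb that lacked a peak, which the peaks themselves decide. That cut took stretches of 5.64, 2.34, 2.25 and 2.05 Mb from 16q but only that of 4.10 Mb from 16p. Stretches of 1.98 and 1.96 Mb on 16p fell just short of it, and other cuts were not tried. It was 1.17 against the short arm up to 30 Mb, 1.18 after merging within 500 bp, 1.27 for peaks at or above the median score and 1.32 for peaks at or above the third quartile of scores, and each of these 4 intervals included 1. Windows of 20 or more peaks on 16q numbered 1 for peaks at or above the median score, in which the densest window held 32. They numbered 4 with windows shifted by 500 kb, in which the highest counts were 47 and 37. Leaving out the fullest window was not tried with shifted windows. The difference in the share of wide peaks was 5.35 points at 1500 bp, 1.59 points without the densest window of 16q and 1.77 without that of each arm. Clusters of 5 or more on 16q numbered 5 when merged within 5 kb and 16 within 20 kb, against 0 and 1 on 16p. The difference in spacing was between 10.5 and 23.8 points under its 8 alternatives, each with an interval above 0. The lowest of their lower bounds was 1.35 points, without the densest window of 16q. As neighbours come at least in pairs, these intervals are too narrow, and whether wider ones would include 0 was not tested. The difference in score was between 1.43 and 1.66 points under its 2 alternatives, each with an interval that includes 0. The cause of these changes was not tested. No paired analysis was possible because only 1 immunoprecipitation and 1 input library were analysed. The comparisons with genes, promoters and motifs were not run. Read depth decides which weak sites could be called, and it is unknown.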

Other observations

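Wide peaks of low score were few in the list as a whole. Chromosomes 1 to 22 and X held 99 peaks of 1000 bp or more that scored under the list's median, in 59 windows of 1 Mb. The window of 16q from 85000001 held 12 of them, and the next window, on chromosome 8 from 86000001, held 5. On 16p there were 2, both in the window from 33000001 near the centromere: they ran from 33942332 to 33944978 (2647 bp, score 50.84) and from 33949992 to 33951653 (1662 bp, score 58.91). By number of wide peaks of any score, the window of 16q held 33 of 60 (55.0%), the highest count. The next, on chromosome X from 114000001, held 14, which were all of its 14 peaks, and that on chromosome 3 from 195000001 held 12 of 20 (60%), so the share of wide peaks was higher in these 2 windows.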
